A study of Mus musculus with 7 samples.

Results

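The genes described here are 45 genes of the integrated stress response, the programme run by the transcription factor ATF4. They were followed on 7 arrays labelled as type 1 conventional dendritic cells (cDC1) sorted from mouse spleen. Cell type markers on the arrays labelled WT 1 and WT 2 go against that label, so it is not settled what cells their values describe. Members were taken from a fixed list of symbols, with the brightest probe set (by its mean level) standing for each symbol. Of the 45 listed genes, 43 had a named probe set among the 19505 genes of the table; Gdf15 and Aars were not analysed here. No measured value entered the choice of members, but the list was drawn up with earlier results of these data known.

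cDC1 are the dendritic cell subset specialised in showing antigen from other cells to CD8 T cells. All mice were of the C57BL/6 strain and bore tumors grown from B16-OVA, melanoma cells that make ovalbumin as a model antigen, and no age is given in the sources used here. The 3 arrays labelled WT came from wild-type mice, for which no further allele is given. The 4 arrays labelled KO came from CD11c-Cre; OPA1 flox mice, in which Cre under the CD11c promoter acts in dendritic cells generally, and in some macrophages, and so is not limited to cDC1. OPA1, a dynamin-like GTPase of mitochondria, joins inner membranes during fusion and keeps cristae in shape. Values are deposited log2 expression values, so a difference of 1 is a doubling; differences are KO minus WT. Where every array is listed, values follow the replicate numbers, WT 1 to WT 3 and KO 1 to KO 4. Nothing in the labels says which arrays came from separate mice, or whether mice were pooled, so each p-value measures the spread between these arrays.

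In the integrated stress response, kinases that sense different stresses phosphorylate the translation factor eIF2, which lowers protein synthesis as a whole while favouring translation of ATF4. ATF4 then pairs with other basic leucine zipper proteins and switches on genes for serine and one-carbon metabolism, asparagine synthesis, amino acid uptake and tRNA charging. Damaged mitochondria reach the same programme when the protease OMA1 cleaves DELE1, which activates the eIF2 kinase HRI (gene Eif2ak1); OMA1 also cleaves OPA1. Because ATF4 is controlled mainly through translation, the level of Atf4 RNA need not follow the activity of the programme.

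ATF4 dimers bind a composite C/EBP-ATF element with the core TGATGNAA. That core was searched on both strands (TTNCATCA on the opposite strand) as the only motif, from 250 bases before to 50 bases after each annotated gene start in RefSeq (GRCm38.p6). Of the 45 members, 37 had a promoter entry, and 15 of those 37 (40.5%) held the core in at least 1 entry, against 1219 of 27025 genes in all (4.51%). The members were listed as genes of the ATF4 programme, so this share describes the list and is not independent evidence about it. A match is a description of the letters and not a bound site. The Asns promoter is printed because Asns had the largest difference between the groups of all 43 members; the 250 bases before its start are given with the core in capitals, 23 bases before the start.
Asns, GRCm38.p6, chr6:7693210-7693459, minus strand: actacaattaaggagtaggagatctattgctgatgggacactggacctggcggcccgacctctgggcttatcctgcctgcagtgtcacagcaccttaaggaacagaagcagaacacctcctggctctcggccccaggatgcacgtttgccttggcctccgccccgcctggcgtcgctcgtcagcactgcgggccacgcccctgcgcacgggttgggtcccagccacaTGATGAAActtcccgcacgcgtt

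Short stretches around the core, again in capitals, are shown for 6 more carriers whose values did not run the same way, so that the element can be set beside the direction of each gene.
Nupr1, GRCm38.p6, chr7:126625559-126625594, minus strand: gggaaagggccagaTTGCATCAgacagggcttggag
Chac1, GRCm38.p6, chr2:119351035-119351070, plus strand: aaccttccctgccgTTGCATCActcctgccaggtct
Atf3, GRCm38.p6, chr1:191183422-191183457, minus strand: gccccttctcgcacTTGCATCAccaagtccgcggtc
Jdp2, GRCm38.p6, chr12:85599369-85599404, plus strand: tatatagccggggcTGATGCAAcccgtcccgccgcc
Fgf21, GRCm38.p6, chr7:45615608-45615643, minus strand: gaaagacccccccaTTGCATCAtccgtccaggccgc
Slc7a11, GRCm38.p6, chr3:50443639-50443693, minus strand: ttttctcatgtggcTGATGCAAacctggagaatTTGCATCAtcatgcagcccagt
Slc7a11 held the core in both orientations. Of the 14 measured members with the core, 5 had a lower mean in KO and 9 a higher one. Among the 10 members lower in KO at an unadjusted p under 0.05, 8 had a promoter entry and only 1 of these, Asns, held it; both members higher at that level, Jdp2 and Fgf21, held it.

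The labels were checked on Opa1 and on cell type markers before the members were compared. Opa1 read 8.14, 8.80 and 9.15 on the WT arrays, against 7.70, 7.10, 6.85 and 8.24 on the KO arrays, so KO 4 lay above WT 1. The difference was -1.22 with a standard error of 0.363 (limma, adjusted p = 0.223). An exact permutation test with the lower tail doubled gave p = 0.114, where that rule allows no less than 0.0571. Groups are therefore named as the arrays are labelled. The mean of 15 melanocyte genes was 11.41, 11.67 and 9.21 on the WT arrays, against 7.62 to 8.32 on the KO arrays, and 14 of the 15 were lower in KO. Tyr, the melanin enzyme tyrosinase, read 11.96, 12.31 and 8.80 on the WT arrays and at most 7.15 on the KO arrays. The mean of 12 cDC1 genes was 11.22, 9.45 and 11.66 on the WT arrays, against 11.70 to 11.81 on the KO arrays. The mean of 3 genes of resident splenic cDC1 was low on both WT 1 and WT 2, at 9.34 and 8.44, while WT 3 read 11.59 and the KO arrays 11.32 to 11.47. Among them Cd8a read 7.89 and 6.96 there, while WT 3 read 12.11 and the KO arrays 11.95 to 12.12. Cd36 read 9.55 on WT 1 and 8.77 on WT 2, against 11.31 to 11.51 on the KO arrays. Ly75 read 10.59 on WT 1, within the KO range of 10.53 to 10.93, and 9.58 on WT 2. On WT 2 the cDC1 genes Xcr1 and Clec9a read 7.97 and 7.29, against at least 12.70 and 12.03 on every KO array. On WT 1 these 2 genes read 12.12 and 10.46, nearer to the KO arrays than WT 2. Macrophage and cDC2 genes were highest on WT 2, with list means of 10.53 and 10.32 against at most 9.01 and 8.78 on the KO arrays. No melanocyte, cDC1 or macrophage marker fell to the median of the background probe sets on any array. The part that other cells played in the results below was not tested. WT 3 alone is set against KO beside the results on most named members, though its melanocyte mean also lay above every KO array. In such bulk samples, fewer cells of a type and less RNA per cell cannot be told apart.

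No member passed an adjusted p of 0.05 between KO and WT, nor did any of the 19505 genes (0% called; limma, smallest adjusted p = 0.223, 3820 genes at an unadjusted p under 0.05). At an unadjusted p under 0.05, 10 of 43 members were lower in KO, where 10.6% of all genes were, and 2 of 43 were higher, where 8.98% were. All KO arrays lay below all WT arrays in 3 members (5.92% of all genes) and above them in 1 (7.85%). The median difference was -0.03 over the 43 members and 0.06 over all genes. The members did not share 1 direction: differences ran from -1.13 for Asns to 0.66 for Jdp2. As deposited, 27 were lower and 16 higher, where 40.1% of all genes were lower. That split changed with the scaling: with median centring or quantile normalization 21 were lower and 22 higher. At an unadjusted p under 0.05 in limma, 8 members were then lower and 4 or 5 higher. In either direction, 4283 genes passed that level with median centring and 4065 with quantile normalization. The share of all genes that were lower was not worked out under these scalings, so the split there has no background beside it.

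The heat map of members by array shows where those differences sat. WT 1 and WT 2 both lay above every KO array in 19 members (20.6% of all genes) and both lay below in 9 (25.4%). WT 3 lay within the range of the KO arrays in 26 members, above all of them in 7 (18.1% of all genes) and below all of them in 10 (24.2%). Set alone against KO, WT 3 gave a median difference of -0.01, with 22 members lower and 21 higher, and no member or other gene was called (0%; limma, 1154 genes at an unadjusted p under 0.05). At that unadjusted level 1 member was lower, Cth (3.05% of all genes), and 0 were higher (2.87%). Over all genes 44.7% were lower in KO than on WT 3. The lone WT array is assumed in this comparison to vary like the KO arrays. When WT 3 was left out instead, 19 members were called by limma at an adjusted p under 0.05, 15 lower (13.8% of all genes) and 4 higher in KO (11.4%). In that setting the WT group consists of the arrays with the highest melanocyte values. The setting with array weights, which gave WT 3 the lowest weight at 0.241, called 14 members, where 22.9% of all genes were called.

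**Figure D1:**
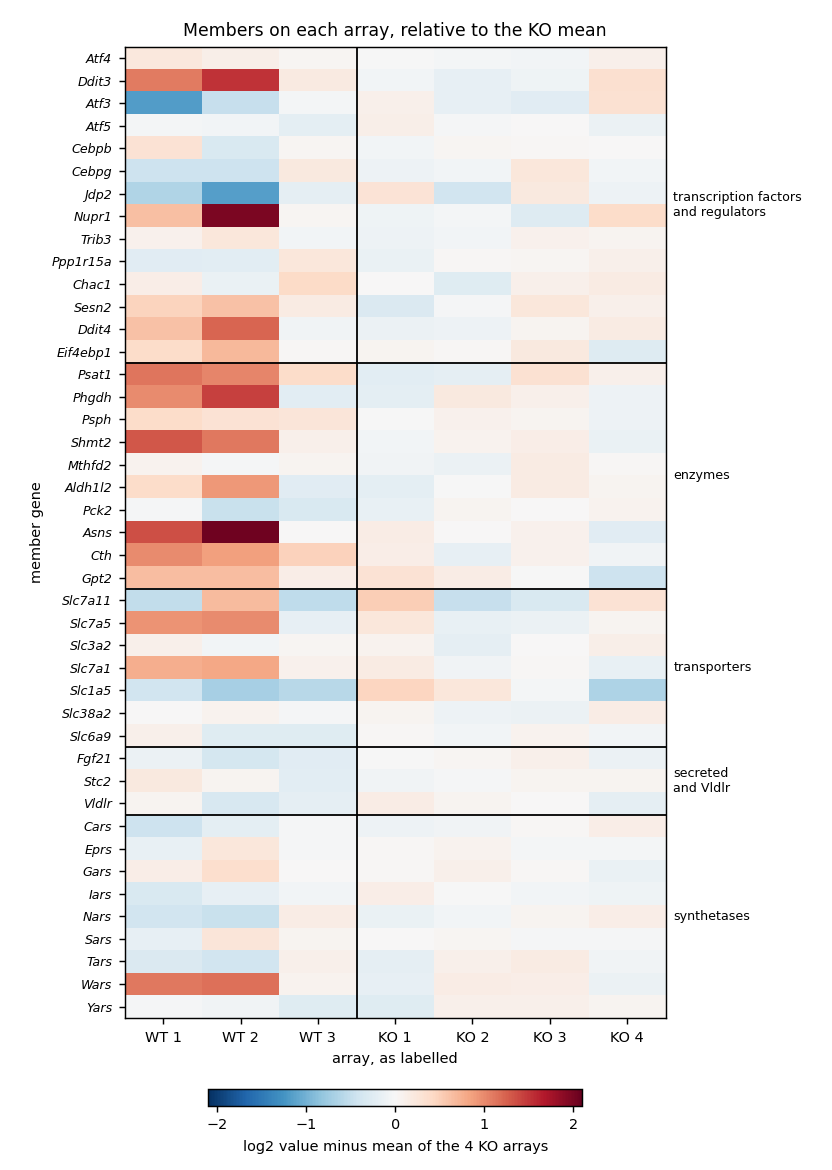
Each row is 1 of the 43 measured members and each column 1 array; colour gives the log2 value minus the mean of the 4 KO arrays, red for above and blue for below, and black lines separate gene roles and groups. Red cells are strongest on WT 1 and WT 2 among the enzymes, where Asns read 10.34 and 11.02 against a KO mean of 8.98, while WT 3 stayed within 0.58 of the KO mean in every member.

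Enzymes of serine, one-carbon, asparagine and cysteine metabolism held 6 of the 10 members that were lower in KO at an unadjusted p under 0.05 in limma. At that level 10.6% of all genes were lower. Of 10 measured enzymes 9 had a lower mean in KO as deposited, where 40.1% of all genes had. Among the 9, Mthfd2 turned to slightly higher under median centring and quantile normalization. The median difference of the enzymes was -0.61 against all WT arrays and -0.07 against WT 3 alone. WT 1 and WT 2 were above every KO array in 8 of the 10, where 20.6% of all genes had them so. Taken array by array, the median of the enzymes over the KO mean was 0.82, 0.88 and 0.07 on the WT arrays, and between -0.09 and 0.10 on the KO arrays. WT 1 and WT 2 were thus the high arrays. They were also the highest for the melanocyte genes, where the mean on WT 3, at 9.21, lay above the KO arrays too (7.62 to 8.32). What part the melanocyte genes had in this was not tested.

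Serine is made from a glycolytic intermediate in 3 steps, by PHGDH, PSAT1 and PSPH in turn. Psat1, the aminotransferase of the middle step, read 9.60, 9.49 and 8.85 on the WT arrays, against 8.25, 8.28, 8.79 and 8.58 on the KO arrays. All WT arrays were above all KO arrays, but WT 3 exceeded KO 3 by little; the difference was -0.84 with a standard error of 0.214 (limma, adjusted p = 0.223) and -0.37 against WT 3 alone. Psph, the phosphatase of the last step, read 10.34, 10.25 and 10.20 on the WT arrays, against 9.94, 10.04, 10.00 and 9.84 on the KO arrays. The groups did not overlap, and here WT 3 was close to the other WT arrays: the difference was -0.31 with a standard error of 0.0955 over all arrays (limma, adjusted p = 0.223) and -0.25 against WT 3 alone (limma, adjusted p = 0.859). Phgdh, the dehydrogenase of the first step, is given although its unadjusted p was 0.0699 in limma, because it differed in pattern from its partners: it read 9.13 and 9.58 on WT 1 and WT 2, but 7.92 on WT 3, below every KO array (7.93 to 8.34).

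Shmt2, the mitochondrial enzyme that moves a carbon from serine to folate, read 12.04 and 11.84 on WT 1 and WT 2, 10.83 on WT 3 and 10.67, 10.81, 10.87 and 10.59 on the KO arrays. WT 3 lay among the KO arrays; the difference was -0.83 with a standard error of 0.269 over all arrays (limma, adjusted p = 0.223) and -0.09 against WT 3. Mthfd2, which acts on the next step of the same mitochondrial folate path, was level: its WT mean was 10.74 ± 0.04 (SD, n = 3), its KO mean 10.71 ± 0.13 (SD, n = 4). Its difference of -0.03 had a 95% interval of -0.27 to 0.21, and was -0.05 against WT 3 alone. Aldh1l2, a mitochondrial folate dehydrogenase, read 7.11, 7.64 and 6.50 on the WT arrays, against 6.53 to 6.91 in KO.

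Asns, asparagine synthetase, read 10.34, 11.02 and 8.98 on the WT arrays, against 9.13, 8.99, 9.07 and 8.74 on the KO arrays. WT 1 and WT 2 were high and WT 3 sat among the KO arrays. The difference over all arrays was -1.13 with a standard error of 0.416, a 2.19-fold higher geometric mean in WT (limma, adjusted p = 0.227). Against WT 3 alone it was 0.00 with a standard error of 0.174, and without WT 3 it was -1.70 (limma, adjusted p = 0.000351), so the value for Asns rested on WT 1 and WT 2.

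Cth, cystathionine gamma-lyase, which makes cysteine, was the member with the smallest unadjusted p (0.000765 in limma). It read 8.32, 8.19 and 7.81 on the WT arrays, against 7.47, 7.16, 7.42 and 7.26 on the KO arrays, and all WT arrays exceeded all KO arrays. The difference was -0.78 with a standard error of 0.147, or 1.72-fold (limma, adjusted p = 0.223). Against WT 3 alone it was -0.49 with a standard error of 0.164 (limma, unadjusted p = 0.0184, adjusted p = 0.832). Gpt2, a mitochondrial alanine aminotransferase, read 8.63, 8.63 and 8.12 on the WT arrays, against 8.28, 8.13, 7.97 and 7.55 on the KO arrays. WT 3 lay below KO 1 and KO 2, and the difference was -0.48 (limma, adjusted p = 0.253) and -0.14 against WT 3 alone. Pck2, a mitochondrial kinase that makes phosphoenolpyruvate, was the 1 enzyme with a higher mean in KO as deposited, at 9.10 ± 0.11 (SD, n = 4) against 8.83 ± 0.22 (SD, n = 3) in WT (limma, adjusted p = 0.282), a difference of 0.27 that was 0.32 against WT 3 alone. Without WT 3 the calls by limma included 7 of these 10 enzymes, all lower in KO, where 13.8% of all genes were called lower: Psat1, Phgdh, Shmt2, Aldh1l2, Asns, Cth and Gpt2, with differences from -0.64 to -1.70.

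**Figure D2:**
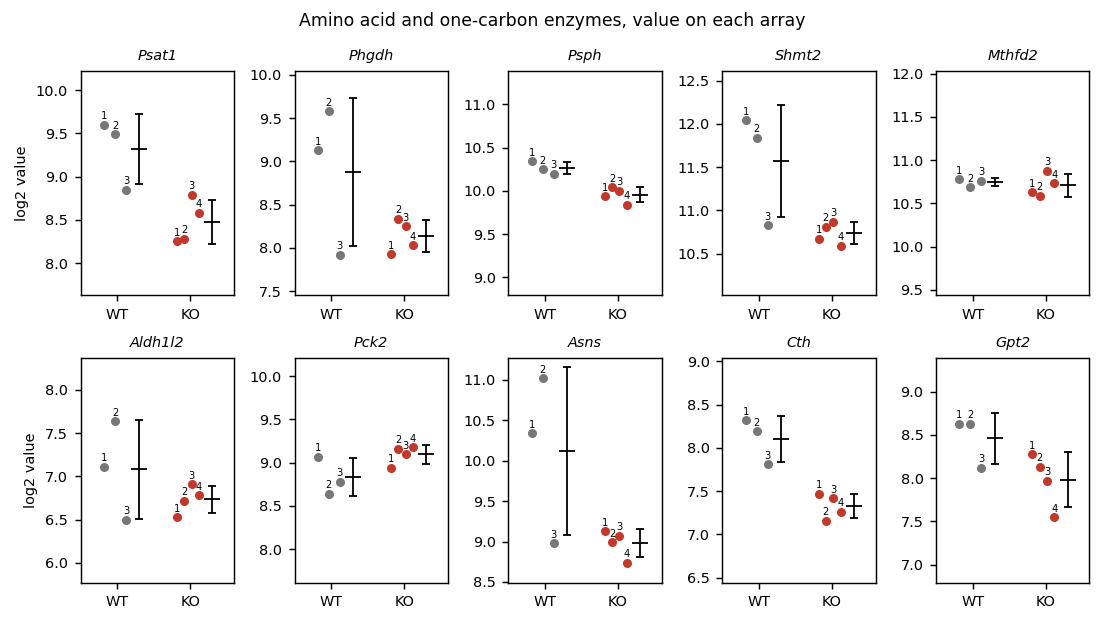
The 10 enzymes on each array: dots are single arrays with their replicate number, grey for WT and red for KO, on a log2 axis, with mean and SD at the right of each group. In Asns, Phgdh and Shmt2 only WT 1 and WT 2 stand above the KO arrays, whereas in Cth, Psat1 and Psph WT 3 does as well.

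Atf4 itself was level. It read 12.57, 12.48 and 12.39 on the WT arrays, against 12.34, 12.31, 12.29 and 12.45 on the KO arrays. KO 4 lay above WT 3, and the difference of -0.13 had a 95% interval of -0.35 to 0.09 (limma, adjusted p = 0.444), and it was -0.04 against WT 3 alone. Over the 14 transcription factors and feedback regulators the median difference was -0.11, with 9 lower and 5 higher as deposited; Cebpb, at -0.01, turned to slightly higher under median centring and quantile normalization. Against WT 3 the median was -0.04.

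Ddit3 encodes CHOP, a stress factor downstream of ATF4. On the probe set chosen by its mean it read 11.38, 11.80 and 10.48 on the WT arrays, against 10.24, 10.11, 10.20 and 10.63 on the KO arrays. WT 1 and WT 2 were high, and WT 3 was below KO 4. The difference was -0.93 with a standard error of 0.292 (limma, adjusted p = 0.223), -0.19 against WT 3 alone, and -1.30 without WT 3 (limma, adjusted p = 0.000917). A second Ddit3 probe set gave -0.86 over all arrays. Nupr1, a stress-induced chromatin protein, and Ddit4, an inhibitor of mTORC1, were also highest on WT 1 and WT 2: Nupr1 read 9.71, 11.06 and 9.12 on the WT arrays, against 8.81 to 9.47 in KO, and Ddit4 read 9.04, 9.65 and 8.36 on the WT arrays, against 8.30 to 8.61 in KO. Neither had an unadjusted p under 0.05; both are shown because WT 1 and WT 2 were their highest arrays, and against WT 3 alone they differed by -0.05 and 0.07. Sesn2, a leucine sensor that also restrains mTORC1, read 9.69, 9.83 and 9.39 on the WT arrays, against 8.91, 9.19, 9.46 and 9.33 on the KO arrays. WT 3 was below KO 3, and the difference was -0.42 (limma, adjusted p = 0.238) and -0.17 against WT 3 alone. Eif4ebp1, a repressor of cap-dependent translation, differed by -0.36 with a standard error of 0.176 over all arrays and by -0.03 against WT 3 alone.

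A second set of regulators ran the opposite way, low on WT 1 and WT 2. Jdp2, a repressor of the AP-1 family, read 8.72, 8.19 and 9.16 on the WT arrays, against 9.63, 8.94, 9.56 and 9.25 on the KO arrays. WT 3 exceeded KO 2, and the difference was 0.66 with a standard error of 0.252 (limma, adjusted p = 0.233), against 0.19 with WT 3 alone. Atf3, a stress-induced leucine zipper factor, read 11.27, 11.97 and 12.41 on the WT arrays, against 12.22 to 12.77 in KO, a difference of 0.57 (limma, adjusted p = 0.272) that was 0.04 against WT 3 alone. Cebpg, a dimer partner of ATF4, read 9.94, 9.95 and 10.59 on the WT arrays, against 10.27, 10.32, 10.61 and 10.32 on the KO arrays; its difference was 0.22 over all arrays and -0.21 against WT 3 alone. Without WT 3, Ddit3, Nupr1, Sesn2, Ddit4 and Eif4ebp1 were called lower and Atf3, Cebpg and Jdp2 higher in KO (limma, adjusted p from 0.000917 to 0.038). In that setting 13.8% of all genes were called lower and 11.4% higher.

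Chac1, which degrades glutathione and is a target of ATF4, read 8.56, 8.28 and 8.83 on the WT arrays, against 8.42, 8.16, 8.52 and 8.59 on the KO arrays. The groups overlapped, WT 3 was the highest array, and the difference was -0.13 over all arrays and -0.41 against WT 3 alone (limma, adjusted p = 0.635 and 0.834). Ppp1r15a, the stress-induced subunit of the eIF2 phosphatase, was likewise highest on WT 3, at 11.73 against 11.36 to 11.60 in KO, while WT 1 and WT 2 read 11.26 and 11.28. Trib3, a pseudokinase that feeds back on ATF4, and Atf5 and Cebpb, both leucine zipper factors, differed by -0.09, 0.10 and -0.01. Their 95% intervals ran from -0.35 to 0.16, from -0.13 to 0.33 and from -0.34 to 0.33, and against WT 3 alone they differed by 0.06, 0.20 and -0.04.

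**Figure D3:**
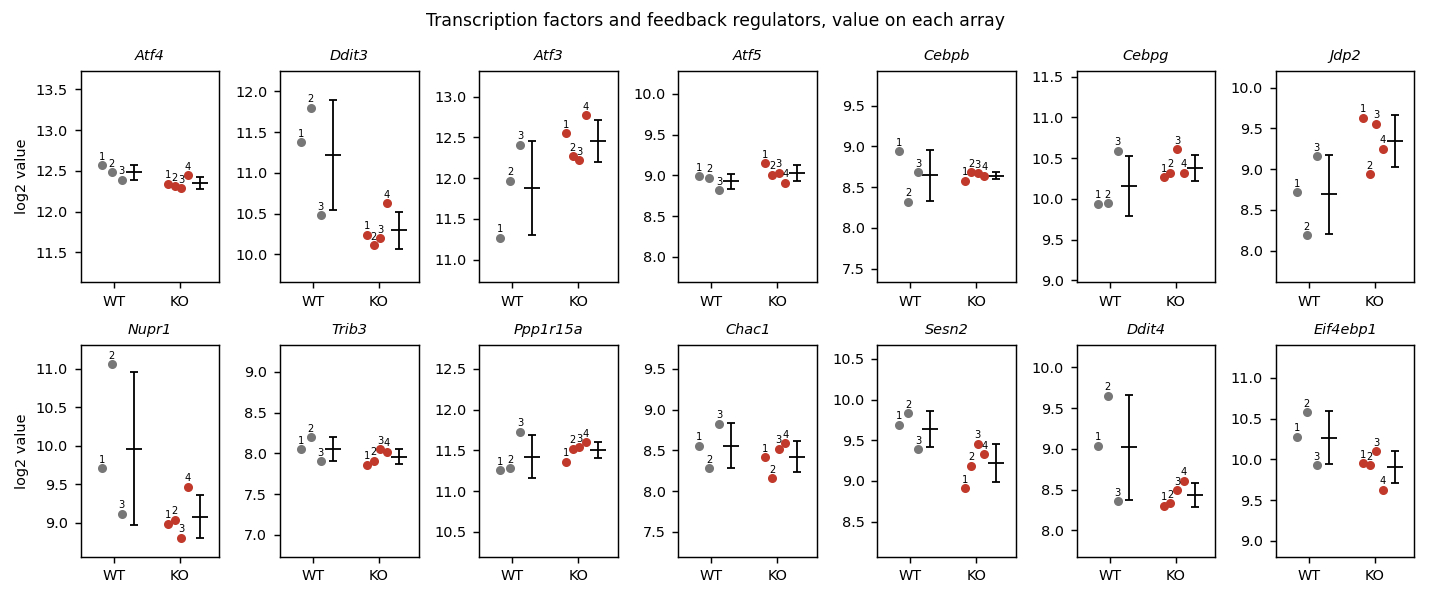
The 14 transcription factors and feedback regulators on each array, with arrays as numbered dots (grey WT, red KO), a log2 axis and mean and SD beside each group. Atf4 stays between 12.29 and 12.57 on all arrays, Ddit3 and Nupr1 are high on WT 1 and WT 2, and Jdp2 is low on them.

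The 7 amino acid transporters were split. Their median difference was -0.01, with 4 lower and 3 higher as deposited, and the small differences of Slc3a2 and Slc38a2 changed sign under median centring and quantile normalization. Slc7a1, a carrier of arginine and lysine, read 10.85, 10.90 and 10.18 on the WT arrays, against 10.26, 10.02, 10.12 and 9.94 on the KO arrays. WT 3 lay below KO 1; the difference was -0.56 with a standard error of 0.187 (limma, adjusted p = 0.223), -0.09 against WT 3 alone, and -0.79 without WT 3 (limma, adjusted p = 0.00183). Slc7a5 encodes the light chain of the leucine carrier LAT1. It read 10.72 and 10.77 on WT 1 and WT 2, 9.60 on WT 3 and 9.62 to 10.01 in KO, and was also called lower without WT 3, at -0.96 (limma, adjusted p = 0.00117).

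Slc3a2, the heavy chain that partners both Slc7a5 and Slc7a11, did not share that pattern. Its WT mean was 12.36 ± 0.08 (SD, n = 3), its KO mean 12.33 ± 0.14 (SD, n = 4). Slc38a2, a carrier of small neutral amino acids, read 11.94 ± 0.05 and 11.93 ± 0.13, with a 95% interval of the difference from -0.26 to 0.23. Slc6a9, a glycine carrier, differed by 0.14 over all arrays and by 0.26 against WT 3 alone; Slc3a2 and Slc38a2 differed from WT 3 by -0.04 and 0.03.

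The transporters also held the members that varied most within KO. Slc1a5, the glutamine carrier, read 12.69, 12.47, 12.20 and 11.60 on the KO arrays, against 11.83, 11.54 and 11.66 on the WT arrays. KO 1 to KO 3 lay above every WT array and KO 4 among them, giving a difference of 0.56 with a standard error of 0.244 (limma, unadjusted p = 0.0505, adjusted p = 0.256). Unlike Asns, the difference of Slc1a5 was about as large against WT 3 alone, at 0.58 with a standard error of 0.352 (limma, adjusted p = 0.862). Slc7a11, the cystine carrier, read 9.25, 8.25, 8.42 and 9.04 on the KO arrays, against 8.23, 9.40 and 8.21 on the WT arrays. High and low arrays occurred in both groups, and the 95% interval of its difference, -0.70 to 0.95, was wide. That difference was 0.13 over all arrays and 0.53 against WT 3 alone (limma, adjusted p = 0.878). Slc1a5 and Slc7a11 are named because their ranges within KO, 1.09 and 1, were the widest of the 43 members.

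Of the 10 cytosolic tRNA synthetases, which load amino acids onto tRNA, 9 were measured, and Wars had by far the largest difference. Wars, the tryptophan enzyme, which interferon gamma also induces, read 11.69, 11.74 and 10.66 on the WT arrays, against 10.41, 10.73, 10.72 and 10.46 on the KO arrays. WT 3 lay among the KO arrays; the difference was -0.78 with a standard error of 0.261 (limma, adjusted p = 0.223), -0.08 against WT 3 alone, and -1.14 without WT 3 (limma, adjusted p = 0.000374). The other 8 differed by -0.17 (Gars) to 0.23 (Nars), and Cars, Iars, Nars, Tars and Yars had higher means in KO. Eprs turned to slightly higher under median centring and quantile normalization, and Sars under the latter. The median of the 9 synthetases was 0.12 over all arrays and -0.01 against WT 3 alone. Nars was the 1 other synthetase called without WT 3, higher in KO at 0.43 (limma, adjusted p = 0.0298), while against WT 3 alone it was -0.15. Over all genes 13.8% were called lower and 11.4% higher without WT 3.

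**Figure D4:**
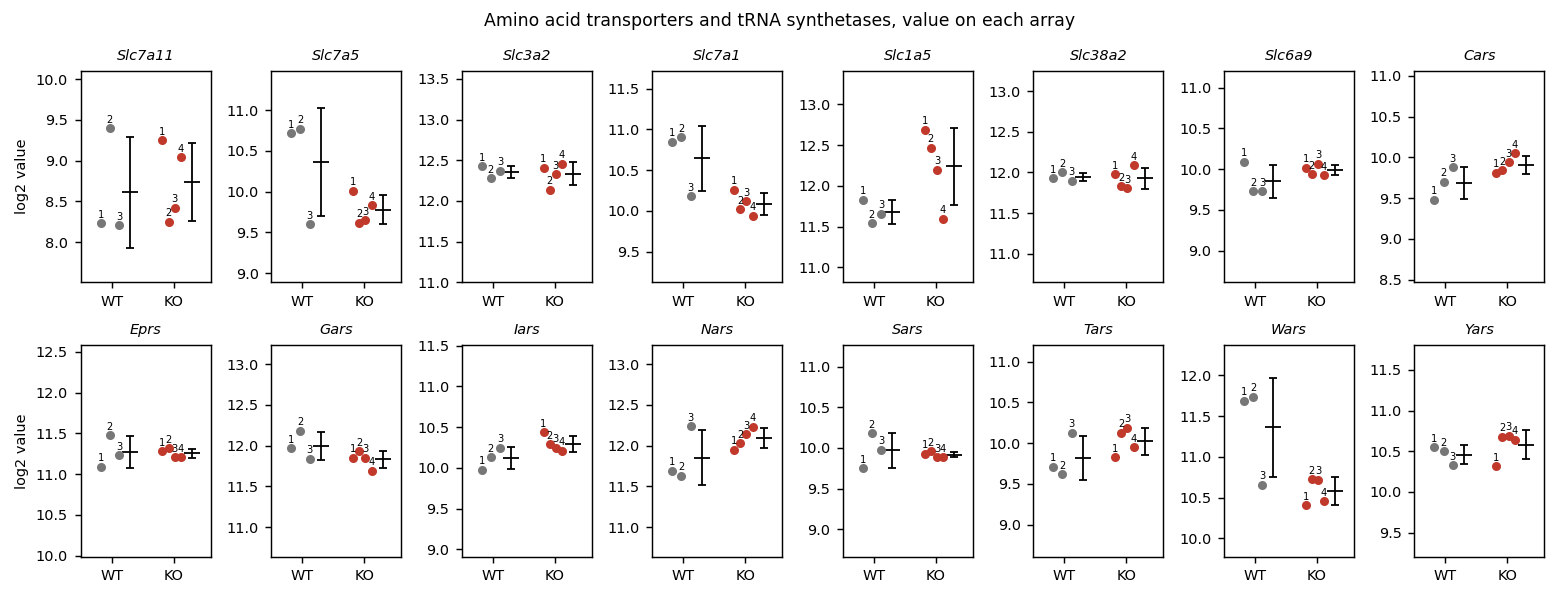
The 7 transporters and 9 synthetases on each array, with arrays as numbered dots (grey WT, red KO), a log2 axis and mean and SD beside each group. Wars, Slc7a5 and Slc7a1 are high on WT 1 and WT 2, Slc1a5 is high on KO 1 to KO 3, and Slc3a2, Slc38a2 and Eprs are level.

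Among the secreted factors Fgf21, a hormone released under mitochondrial and nutrient stress, was the 1 member whose KO arrays all lay above all WT arrays. That order held in 7.85% of all genes. Fgf21 read 7.84, 7.60 and 7.74 on the WT arrays, against 7.96, 8.01, 8.07 and 7.85 on the KO arrays. The gap between WT 1 and KO 4 was small, and the difference was 0.25 with a standard error of 0.104, or 1.19-fold (limma, adjusted p = 0.248), and 0.24 against WT 3 alone. Stc2, a secreted glycoprotein, was at or below the median of the background probe sets on all 7 arrays, at 4.55 to 4.98, so its values carry no order. Vldlr, a lipoprotein receptor, differed by 0.16, with a 95% interval of -0.14 to 0.46, and by 0.19 against WT 3 alone.

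**Figure D5:**
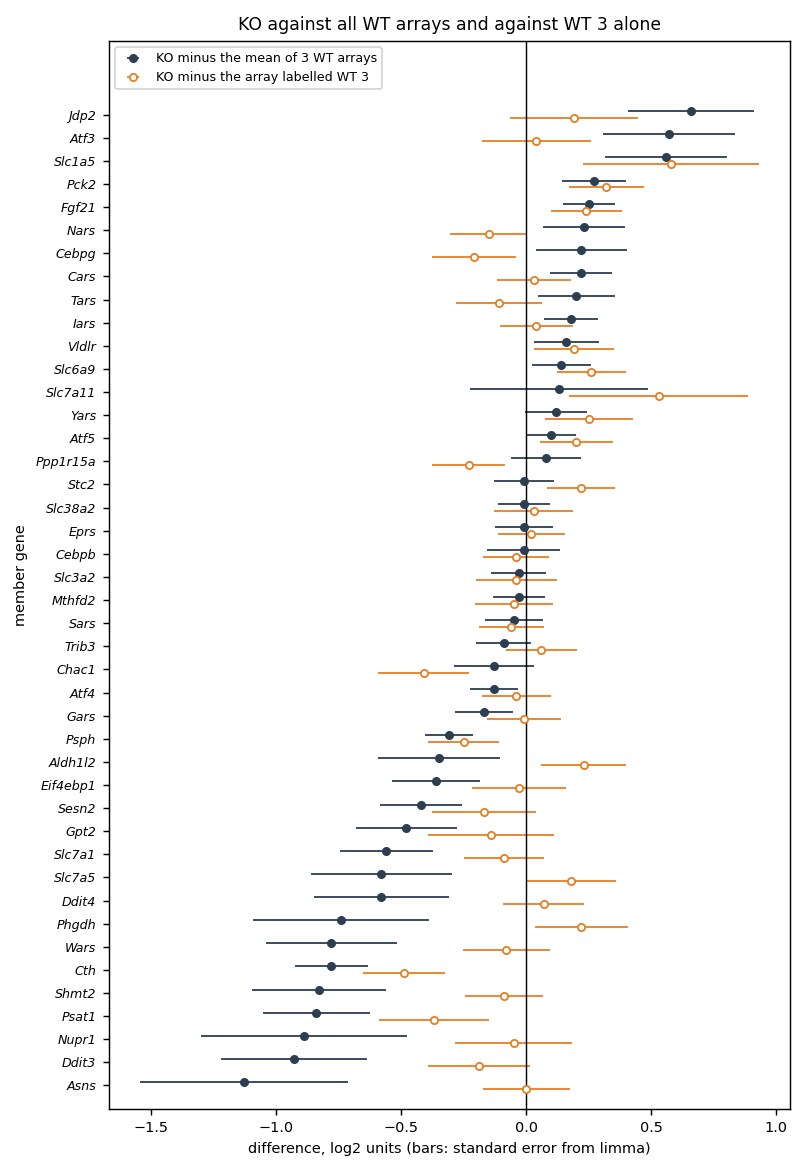
For each of the 43 members, filled circles give KO minus the mean of all 3 WT arrays and open circles KO minus WT 3 alone, in log2 units with standard errors from limma; both share the 4 KO arrays. Asns, Ddit3, Nupr1, Shmt2 and Wars lie far below 0 over all WT arrays and between 0.00 and -0.19 against WT 3, while Cth stays at -0.49 and Slc1a5 at 0.58.

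Genes of the same pathway outside the member list were read from 4 lists with 58 genes, of which 52 were measured. No gene of these lists had an adjusted p under 0.05 in limma; 6 were lower and 4 higher in KO at an unadjusted p under 0.05, and their median difference was -0.02. Those counts are near the shares over all genes, 10.6% lower and 8.98% higher. Without WT 3, limma called 9 of the 52 lower and 7 higher in KO, where 13.8% and 11.4% of all genes were called. The 18 upstream genes were the eIF2 kinases, eIF2, eIF2B and their regulators. Over all arrays, 0 of them were lower and 2 higher at an unadjusted p under 0.05 in limma. Without WT 3, limma called 0 of them lower and 4 higher. Ppp1r15b, the constitutive subunit of the eIF2 phosphatase, read 10.38, 10.13 and 10.45 on the WT arrays, against 10.55 to 10.62 in KO, with no overlap. Eif2ak4, which encodes the amino acid sensor GCN2, read 10.30, 10.26 and 10.93 on the WT arrays, against 10.83 to 11 in KO. Against WT 3 alone these 2 genes differed by 0.14 and -0.02. On the mitochondrial route, Oma1 read 9.38, 9.29 and 10.39 on the WT arrays, against 10.07 to 10.36 in KO, a difference of 0.55 that was -0.16 against WT 3 alone and 0.90 without WT 3 (limma, adjusted p = 0.000763). Dele1 and Eif2ak1, named as the other steps of that route, differed by 0.04 and 0.16 (limma, adjusted p = 0.843 and 0.616).

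The other folate, serine and proline enzymes again held the largest of these differences. Of 11 measured, 4 were lower and 1 higher at an unadjusted p under 0.05 in limma, where 10.6% and 8.98% of all genes were. Mthfd1l, the mitochondrial enzyme that releases formate after the MTHFD2 step, read 10.10, 10.67 and 9.28 on the WT arrays, against 9.04, 8.76, 8.87 and 9.07 on the KO arrays. All WT arrays exceeded all KO arrays, and the difference was -1.08 with a standard error of 0.29 (limma, adjusted p = 0.223) and -0.35 against WT 3 alone; without WT 3 it was -1.45 (limma, adjusted p = 0.000432). Mthfd2l, an isozyme of Mthfd2, ran the other way, from 6.74 ± 0.09 (SD, n = 3) to 7.07 ± 0.10 (SD, n = 4), without overlap. Got1, the cytosolic aspartate aminotransferase, and Tyms, thymidylate synthase, differed by -0.66 and -0.38, and by -0.28 and -0.12 against WT 3 alone. Of the 12 other synthetases and scaffold proteins, Lars was higher (0.79) and Aimp2 lower (-0.46) at an unadjusted p under 0.05 in limma; Mars1 and Kars differed by 0.19 and -0.27. Against WT 3 alone Lars differed by 0.17 and Aimp2 by -0.10, while without WT 3 Lars was called at 1.09 (limma, adjusted p = 0.000774). Of the 11 other transporters only Slc1a4, a carrier of serine and alanine, had an unadjusted p under 0.05 over all arrays in limma, at -0.38. Slc36a1, Slc7a8 and Slc7a7 differed by -0.44, 0.44 and 0.28. Against WT 3 alone, the differences of the 52 genes lay between -0.38 and 0.36.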

How the data were processed

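Whole-transcript Affymetrix arrays measured RNA of 3 WT and 4 KO samples labelled as splenic cDC1, grouped and numbered by title. The authors deposited 1 table of 28846 probe sets as log2 values (3.68 to 14.28), which the submitters' processing notes credit to RMA in Affymetrix Expression Console 1.1; the scale was read from the values. RMA compresses dim signals, so small values understate differences. Of 22206 transcript probe sets, 19572 had 1 symbol in the platform annotation, 0 had several and 2634 had none; 1 probe set per symbol (highest mean) left 19505 genes. The background is the median of 23 background probe sets, 5.56 to 5.62 per array. The groups were compared by limma (version 3.58.1, under R 4.3.3) through lmFit and eBayes on group alone. Adjusted p-values follow Benjamini and Hochberg across every gene, with 0.05 as threshold, and intervals are 95%. The script was tested on simulated data in which both groups had the spread of the KO arrays. That test does not cover the spread between the WT arrays. The number of arrays limits the precision. Alternatives left out each array or WT 1 and WT 2 together, or used a replicate block, median centring, quantile normalization, a dim filter (mean under the median of transcript probe sets), a trended and robust prior, array weights, or every probe set. Members and lists were chosen with earlier results of these data known. Values on every array were to be printed for members with an unadjusted p under 0.05 or no overlap between groups and for Atf4, Ddit3, Asns and Chac1; other members shown array by array, and Dele1, Eif2ak1 and the markers named, were chosen after their values were seen. Up to 4 genes of each other list were named by smallest p.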

Additional observations from a re-analysis of the deposited data

Results flagged for a closer look

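Among 60 groups of 4 KO arrays, 1 for each member, Opa1 and each named gene of the other lists, 2 held an array far from the other 3; chance alone does this in about 1 of 20 groups. Cebpg read 10.61 on KO 3, where the next highest KO array read 10.32. Yars read 10.32 on KO 1, where the next lowest read 10.64.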

How the results depend on the processing

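Of 640 pairs of a member and an alternative, 558 kept direction and side of the threshold, 49 changed sign (19 members), 33 became called and 0 lost a call. Array weights called 4458 genes and 14 members, with 7038 genes, 16 lower and 7 higher members at an unadjusted p under 0.05 in limma and a median of -0.09. Leaving out 1 array gave 0 to 4931 genes called, 0 to 19 members called (all from leaving out WT 3), 1616 to 7189 genes at an unadjusted p, 4 to 16 members lower, 0 to 6 higher, and a median of -0.08 to -0.04; 4 members were lower without WT 1 or without WT 2 and 16 without WT 3, and 0 were higher without WT 2, KO 1 or KO 3. Opa1 then ran from -1.50 to -1. WT 3 alone against KO gave 1154 genes, 1 lower and 0 higher member. The dim filter, which kept 37 members and not Opa1, gave 2283 genes and 1 higher member. Median centring and quantile normalization gave 4 and 5 higher members and medians of 0.02 and 0.01, and the median against WT 3 was 0.02 after quantile normalization. Deviations of same-numbered arrays from their group means correlated at -0.0382, 0.0463 and -0.0168. With few arrays and WT 1 and WT 2 apart from WT 3, these values do not settle whether replicate numbers pair the arrays. With the replicate number as a block 0 genes were called by limma, 2488 had an unadjusted p under 0.05, 6 members were lower, and the median was -0.07. Against WT 3 alone the sign turned for Cebpg (-0.21), Trib3 (0.06), Ppp1r15a (-0.23), Ddit4 (0.07), Phgdh (0.22), Aldh1l2 (0.23), Asns (0.00), Slc7a5 (0.18), Slc38a2 (0.03), Stc2 (0.22), Eprs (0.02), Nars (-0.15), Tars (-0.11), Eif2ak4 (-0.02), Oma1 (-0.16), Eif2b2 (-0.03), Kars (0.05) and Slc7a7 (-0.01). It turned with median centring for Cebpb (0.05), Mthfd2 (0.02), Slc3a2 (0.03), Slc38a2 (0.04), Stc2 (0.04) and Eprs (0.04), and with quantile normalization for Cebpb (0.06), Mthfd2 (0.02), Slc3a2 (0.01), Slc38a2 (0.01), Eprs (0.02) and Sars (0.01). It turned with array weights for Eprs (0.07) and Sars (0.05), and with the block for Eprs (0.00). Leaving out 1 array took Cebpb from -0.17 to 0.14, Chac1 from -0.27 to 0.00, Eprs from -0.10 to 0.09, Mthfd2 from -0.09 to 0.01, Ppp1r15a from 0.00 to 0.24, Sars from -0.16 to 0.05, Slc38a2 from -0.07 to 0.02, Slc3a2 from -0.07 to 0.04, Slc7a11 from -0.08 to 0.52 and Stc2 from -0.13 to 0.08. The cause of these shifts was not tested. Signal over background limits Stc2, which was not above it on any array.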
